A study of Mus musculus with 69 samples.

Results

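A set of 6 basic helix-loop-helix transcription factors was followed across the RNA-seq tables of this series, namely the MiT/TFE factors Tfec, Tfeb, Tfe3 and Mitf and the pair Bhlhe40 and Bhlhe41. The members were looked up by gene symbol, as a set proposed with earlier results of these data known, and all 6 were found among the 24537 gene rows of the strain, time course and Egr2 tables and among the 24527 rows of both F1 tables. Each of the 6 passed the filter on low values, which asked for 1 TPM (read density over transcript length, scaled to a common total) or more in 2 or more libraries, in the strain, time course and Egr2 tables. The cells were bone marrow-derived macrophages (BMDMs) of young adult mice, all female per the study's methods. They were grown out of marrow with the growth factor M-CSF and then left untreated (basal) or given 20 ng/ml of mouse interleukin-4 (IL-4). Polyadenylated RNA was sequenced in 69 mouse samples in all.

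The strain table held 29 libraries of BMDMs from mice of the strains SPRET/EiJ (called SPRET), PWK/PhJ (PWK), C57BL/6J (C57), NOD/ShiLtJ (NOD) and BALB/cJ (BALB), basal or after 24 hours of IL-4, with 3 libraries in each group except 2 in basal PWK. SPRET and PWK are wild-derived strains, and the other three are common laboratory strains. The time course table held C57 and SPRET BMDMs, basal and after 1, 6 and 24 hours of IL-4, with 2 libraries in each of its 8 groups. The Egr2 table held the same 4 time points in BMDMs of Egr2 fl/fl mice, whose Egr2 gene is flanked by loxP sites, and of LyzM-Cre Egr2 fl/fl mice, in which the Lyz2 (LyzM) promoter drives Cre in myeloid cells, again with 2 libraries per group. Both Egr2 groups carry the floxed alleles, and cells in which Cre failed to act would keep Egr2. BMDMs of F1 C57 x SPRET and F1 C57 x NOD mice, basal or after 24 hours of IL-4, were read separately for each parental allele, with 2 libraries per condition. The study's methods call its libraries biological replicates without saying which came from separate mice, so p-values measure the spread between these samples. Tables were normalised separately, so levels were tested only within a table.

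MiT/TFE factors bind E-box and related M-box DNA elements as homodimers or as heterodimers with each other. Tfeb and Tfe3 are held in the cytosol by mTORC1 when nutrients are plentiful and switch on lysosome and autophagy genes when they enter the nucleus; Mitf is the master factor of melanocytes and also acts in osteoclasts and mast cells, and Tfec is the family member expressed mainly in macrophages. Bhlhe40 (Dec1) and Bhlhe41 (Dec2) are E-box repressors that feed back on the circadian clock, and Bhlhe40 also restrains Il10 and the macrophage factor Maf.

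The genes were placed on the mm10 genome as the strain table lists their transcripts. Tfec ran from 16833381 to 16898441 on the minus strand of chromosome 6. Bhlhe40 lay on the plus strand of the same chromosome between 108660629 and 108666925, Bhlhe41 on its minus strand between 145858243 and 145865420, and Mitf on its plus strand between 97807058 and 98021358. Tfeb covered 47737931 to 47792416 of chromosome 17 and Tfe3 covered 7762661 to 7775202 of chromosome X, both on the plus strand. Exons of Bhlhe40 shared 118 of 4705 bases with the antisense gene 0610040F04Rik, and exons of Bhlhe41 shared 1280 of 6720 bases with the gene model Gm43909 on the other strand. The libraries were made with a method that marks strand, but the strand setting of the counting was not given in the sources used here, so reads of those stretches may not be told apart.

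Promoter sequence of the 250 bases before the start site was taken from RefSeq (GRCm38.p6) to show letters that factors acting under IL-4 or in this family bind. The table held 10 promoters of 5 members, of which 1 belonged to Tfec, 3 to Tfeb, 2 to Tfe3, 3 to Mitf and 1 to Bhlhe41. The STAT6 motif, TTC and GAA with 4 bases between them, was in 2 of the 10, in the Tfec promoter at 200 to 191 bases before the start and in a Tfeb promoter at 234 to 225 bases before it, against 5.85% of all 32851 promoters of the same length. The E-box CACGTG was in 1 of the 10, in the Bhlhe41 promoter at 153 to 148 bases before the start, against 6.02% of all promoters. The M-box TCATGTG (3.25% of all promoters), the CLEAR element (0.24%), which is the E-box with GT before and AC after it and so contains it, the STAT motif TTCNNNGAA (7.02%) and the EGR motif GCGTGGGCG (0.536%) were in 0 of the 10. Both strands were searched, and a match is a description of the letters only. The Tfec and Bhlhe41 promoters are printed 5′ to 3′ on the gene's own strand, since both genes responded to IL-4, with the STAT6 motif of Tfec and the E-box of Bhlhe41 in capitals.
Tfec, chr6:16898442-16898691: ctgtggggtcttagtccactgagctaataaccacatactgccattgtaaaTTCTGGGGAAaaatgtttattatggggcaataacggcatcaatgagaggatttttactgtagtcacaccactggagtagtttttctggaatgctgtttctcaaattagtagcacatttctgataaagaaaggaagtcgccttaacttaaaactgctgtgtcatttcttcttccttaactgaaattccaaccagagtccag
Bhlhe41, chr6:145865421-145865670: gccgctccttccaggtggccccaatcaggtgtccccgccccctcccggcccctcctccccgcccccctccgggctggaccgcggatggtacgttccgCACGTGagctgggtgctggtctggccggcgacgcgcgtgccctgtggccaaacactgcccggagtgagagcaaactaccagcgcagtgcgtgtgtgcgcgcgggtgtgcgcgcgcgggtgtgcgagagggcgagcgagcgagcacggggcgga

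Sequencing depth ranged from 7.02 to 22.5 megatags per library in the strain table, from 5.70 to 24.0 megatags in the time course table and from 4.69 to 32.9 megatags in the Egr2 table. Macrophage markers were present throughout, with 5 of 7 in the strain table, 6 of 7 in the time course table and 7 of 7 in the Egr2 table at 1 TPM or more in every library. Summed granulocyte markers reached 545 to 550 TPM in basal PWK and 344 to 404 TPM in basal SPRET, against 40.8 to 131 TPM in the other basal groups, and after IL-4 they were 16.6 to 24.3 TPM in C57 and 543 to 596 TPM in PWK. Summed stromal markers were 202 to 210 TPM in basal PWK and 105 to 112 TPM in IL-4-treated PWK, and 2.24 to 16.7 TPM in the other groups. The highest stromal marker was Dcn, at up to 208 TPM, and 3 of the 5 were below 1 TPM in every library. The stromal sum thus largely follows 1 gene and is no measure of stromal cells. The part of the granulocyte and stromal markers in the results was not tested. In bulk RNA a change in the number of cells of a type and a change in RNA per cell cannot be told apart.

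The first comparison asked how the 6 factors responded to 24 hours of IL-4 in each strain. Tfec and Bhlhe40 rose in C57, BALB, PWK and SPRET, Bhlhe41 fell in C57, BALB and PWK, and no member passed the test in NOD. Over the 5 strains, 17 of 30 member tests passed (adjusted p below 0.05, where 34.6% of all gene tests did) and 5 of 30 also exceeded 2-fold (2.62% of all gene tests). Those 5 were Tfec in C57, PWK and SPRET and Bhlhe40 in C57 and SPRET. By strain, 4 of 6 members passed in C57 (35.5% of all genes), 5 of 6 in BALB (34.2%), 0 of 6 in NOD (34.3%), 4 of 6 in PWK (24.7%) and 4 of 6 in SPRET (44.4%).

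Tfec, the macrophage member of the MiT/TFE family, differed most between strains in its level. In basal C57 BMDMs it was at 15.7, 14.4 and 16.1 TPM, and after IL-4 at 39.7, 39.9 and 36.1 TPM. In SPRET it was at 42.9, 39.7 and 40.3 TPM before and 135, 142 and 144 TPM after IL-4, so that the basal SPRET libraries already lay among or above the treated C57 libraries. PWK started lowest, at 3.28 and 3.33 TPM, and reached 22.7, 21.8 and 19.0 TPM. BALB went from 12.0, 12.1 and 11.9 TPM to 19.0, 17.4 and 17.5 TPM. In NOD the values were 6.34, 6.44 and 6.35 TPM before and 6.48, 6.53 and 6.41 TPM after IL-4, and the groups overlapped in this strain only.

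On the log2(TPM + 1) scale Tfec rose by 2.36 ± 0.066 (SE, adjusted p = 3.1e-19) in PWK, a 6.40-fold ratio of mean TPM. In SPRET the rise was 1.75 ± 0.059 (adjusted p = 3.0e-18, 3.42-fold), in C57 1.27 ± 0.059 (adjusted p = 3.2e-15, 2.50-fold) and in BALB 0.54 ± 0.059 (adjusted p = 8.1e-08, 1.49-fold). The NOD difference was 0.02 ± 0.059 (adjusted p = 0.85), with a 95% interval from −0.10 to 0.14, so a rise of the size seen in BALB lay outside it.

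Bhlhe40, the repressor also known as Dec1, had the highest average level of the 6 in the strain table, at percentile 92.1 of mean TPM among the 11907 genes tested. C57 BMDMs held 41.7, 46.2 and 38.3 TPM of it at baseline and 126, 126 and 131 TPM after IL-4, and SPRET BMDMs 47.3, 49.1 and 43.8 TPM and then 212, 208 and 213 TPM. BALB rose from 60.7, 56.0 and 54.1 TPM to 98.1, 83.7 and 83.7 TPM, and PWK from 52.7 and 57.6 TPM to 81.0, 79.7 and 75.6 TPM. All 4 strains showed separate groups. NOD again differed, with 106, 103 and 110 TPM before and 116, 98.1 and 103 TPM after IL-4, overlapping groups whose basal libraries lay above every treated BALB library. The log2 rise was 2.15 ± 0.070 in SPRET (adjusted p = 1.6e-18, 4.51-fold), 1.58 ± 0.070 in C57 (adjusted p = 1.3e-15, 3.03-fold), 0.62 ± 0.070 in BALB (adjusted p = 1.2e-07, 1.55-fold) and 0.51 ± 0.078 in PWK (adjusted p = 1.9e-05, 1.43-fold), and the difference was −0.01 ± 0.070 in NOD (adjusted p = 0.96, 95% interval −0.15 to 0.14).

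Bhlhe41, the closest relative of Bhlhe40, moved the other way. It was at 65.9, 70.9 and 61.7 TPM in basal C57 and at 48.5, 44.8 and 41.3 TPM after IL-4, a fall of 0.55 ± 0.058 on the log2 scale (adjusted p = 2.5e-08). PWK fell from 62.0 and 66.0 TPM to 49.4, 46.4 and 45.9 TPM (log2 difference −0.43, adjusted p = 1.4e-05), and BALB from 72.8, 65.4 and 67.4 TPM to 56.6, 54.3 and 59.7 TPM (log2 difference −0.27, adjusted p = 0.00093). The treated libraries lay below every basal library in these 3 strains. NOD held 105, 104 and 102 TPM and then 94.7, 97.6 and 96.3 TPM, groups that did not overlap but whose log2 difference of −0.11 ± 0.058 missed the threshold (adjusted p = 0.15), and SPRET held 51.9, 51.1 and 50.1 TPM and then 55.2, 49.7 and 52.5 TPM (log2 difference 0.04, adjusted p = 0.64). So on the TPM scale, within each strain of this table that passed for both, Bhlhe40 and Bhlhe41 changed in opposite directions. After median-ratio scaling NOD also passed for both, and there both were lower, as given below with the scalings.

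Tfeb, a driver of lysosome genes, had no common direction. BALB rose from 22.1, 30.2 and 36.7 TPM to 40.1, 51.1 and 47.6 TPM (log2 difference 0.65 ± 0.110, adjusted p = 6.3e-05), although its basal libraries spread widely. The call was lost with only these 2 groups in the fit (adjusted p = 0.055). PWK fell from 42.3 and 39.8 TPM to 31.1, 29.8 and 26.5 TPM (log2 difference −0.48 ± 0.123, adjusted p = 0.0048), a call that was lost without basal PWK replicate 1 (adjusted p = 0.052). Where leaving out a library left 1 in a group, as here and throughout the time course and Egr2 tables, the other groups supplied the spread, so the lone library is assumed to vary like them. SPRET rose from 26.8, 26.2 and 26.0 TPM to 34.5, 35.0 and 32.8 TPM (log2 difference 0.36, adjusted p = 0.0097), which did not pass after median-ratio scaling (0.22, adjusted p = 0.20) or quantile normalization (0.20, adjusted p = 0.23). In C57 and NOD the log2 difference was 0.05 in each, and neither passed.

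Mitf had the lowest average of the 6, with 7.55 to 18.4 TPM over all 29 libraries, although Tfec was lower still in basal BALB, basal PWK and both NOD groups. It rose in SPRET, from 8.55, 7.63 and 7.55 TPM to 10.05, 11.04 and 10.45 TPM (log2 difference 0.37, adjusted p = 0.0024). In C57 the libraries were at 13.1, 14.0 and 11.8 TPM before and 18.4, 15.9 and 13.5 TPM after IL-4, overlapping groups whose difference of 0.27 passed (adjusted p = 0.027) but was lost on leaving out any of 4 libraries (adjusted p = 0.19 without treated C57 replicate 1) and with only these groups in the fit (adjusted p = 0.19). Tfe3, which acts alongside Tfeb, was the steadiest member, with log2 differences from −0.19 to 0.04. Its fall in BALB, from 57.7, 50.2 and 55.0 TPM to 52.2, 45.1 and 45.3 TPM, passed (−0.19, adjusted p = 0.030) with overlapping groups and was lost on leaving out any of 4 libraries (adjusted p = 0.16 without basal BALB replicate 1), after median-ratio scaling (−0.07, adjusted p = 0.36) and with only these groups in the fit (adjusted p = 0.13).

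**Figure D1:**
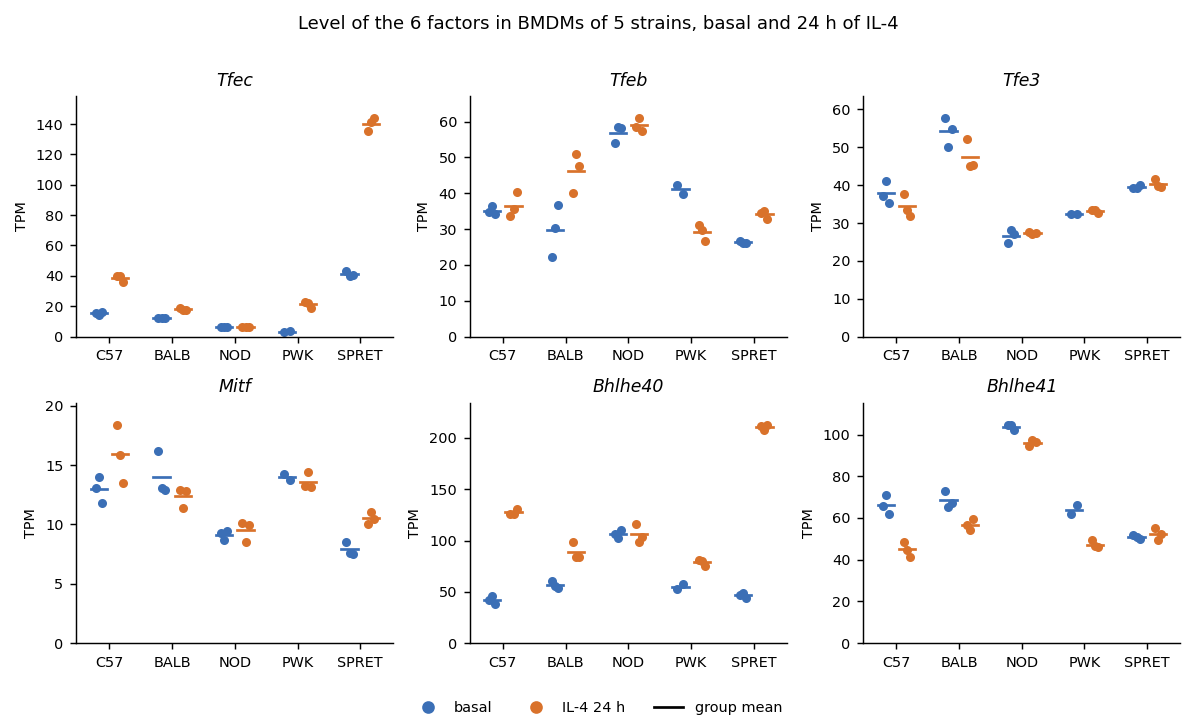
TPM of each factor in each library of the 5 strains, with basal and IL-4-treated (24 hours) BMDMs side by side, points for libraries and short lines for group means. Tfec spans 3.28 to 144 TPM, Tfec and Bhlhe40 separate by treatment in C57, BALB, PWK and SPRET but not in NOD, and Tfe3 stays between 24.8 and 57.7 TPM.

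The strain table is on a TPM scale, on which the median log2 difference over all genes was 0.12 in NOD, −0.11 in BALB, 0.08 in PWK, 0.11 in SPRET and −0.04 in C57. Setting the libraries to a common median ratio changed the share of passed genes that were higher from 82.3% to 42.9% in NOD, from 27.6% to 53.9% in BALB, from 75.3% to 52.5% in PWK and from 70.8% to 48.3% in SPRET. The NOD result depended on this choice. By limma on TPM, 0 of 6 members had an unadjusted p below 0.05 in NOD, whereas after median-ratio scaling 3 of 6 passed and all 3 were lower, namely Bhlhe41 (−0.29, adjusted p = 9.4e-05), Bhlhe40 (−0.19, adjusted p = 0.027) and Tfe3 (−0.14, adjusted p = 0.043). After quantile normalization 1 of 6 passed in NOD, Bhlhe41 at −0.16 (adjusted p = 0.033). Tfec in NOD passed under neither scaling.

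The levels of the 6 factors were then compared between strains within each condition. Among the 60 pairwise basal tests of members 47 passed (67.8% of all gene tests) and 11 exceeded 2-fold (17.7%), and among the 60 after IL-4 52 passed (67.1%) and 12 exceeded 2-fold (16.7%), so the counts over 2-fold were near the share of all genes. Tfec had the widest range. Its basal order was SPRET at 41.0 ± 1.70 TPM (mean ± SD, n = 3), C57 at 15.4 ± 0.872, BALB at 12.0 ± 0.081, NOD at 6.38 ± 0.055 and PWK at 3.31 ± 0.038 (n = 2), and every neighbouring pair passed (the closest, C57 and BALB, at adjusted p = 5.3e-05). Between the top and bottom strains the ratio of basal means was 12.4 for Tfec, 2.52 for Bhlhe40, 2.16 for Tfeb, 2.03 for Tfe3, 2.03 for Bhlhe41 and 1.77 for Mitf.

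After IL-4 the Tfec order was SPRET at 140 ± 4.33 TPM, C57 at 38.5 ± 2.12, PWK at 21.2 ± 1.94, BALB at 17.9 ± 0.899 and NOD at 6.47 ± 0.0595, and PWK lay above BALB by 0.22 (adjusted p = 0.0018), having been lowest at baseline. The SPRET mean was 21.7 times the NOD mean, a log2 difference of 4.24. For Bhlhe40 the basal order was led by NOD, 1.32 above C57 on the log2 scale, while PWK and BALB did not differ beyond their spread (−0.05, adjusted p = 0.62, but 0.17 with adjusted p = 0.038 after median-ratio scaling), nor did SPRET and C57 (0.15, adjusted p = 0.058). After IL-4 SPRET led instead, 0.72 above C57 and 1.41 above PWK. Bhlhe41 was highest in NOD in both conditions, 0.64 above C57 at baseline and 1.08 after IL-4.

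Tfeb was also highest in NOD at baseline, 0.68 above C57 and 1.08 above SPRET on the log2 scale. Tfe3 was instead lowest in NOD, below C57 (log2 difference −0.49) and further below BALB (−0.997), where it was highest. Mitf was lowest at baseline in SPRET (−0.65 against C57) and next in NOD (−0.46, but −0.13 with adjusted p = 0.12 after median-ratio scaling), and the order of SPRET and NOD after IL-4 turned with the scaling, as given among the dependences on processing. The NOD basal libraries differed from C57 by a median of −0.30 over all genes, and median-ratio scaling moved the share of passed genes higher in NOD from 27.1% to 48.4%, so NOD levels stand against that shift. The median over all genes was also off 0 against C57 in basal PWK (−0.16) and, after IL-4, in NOD (−0.13) and SPRET (0.18).

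The next comparison tested whether the response itself differed from that of C57, with the C57 libraries shared by all 4 contrasts. Of 24 member tests 14 passed (26.2% of all gene tests) and 4 exceeded 2-fold (2.42%). The rise of Tfec exceeded that of C57 in PWK by 1.09 and in SPRET by 0.48, and it was smaller in NOD (difference −1.25) and BALB (−0.73). For Bhlhe40 it was larger in SPRET by 0.57 and smaller in BALB (−0.96), PWK (−1.07) and NOD (−1.59). PWK thus rose more than C57 in Tfec and less than C57 in Bhlhe40. The fall of Bhlhe41 was smaller than in C57 in SPRET (difference 0.59), NOD (0.44) and BALB (0.28), the last of which was lost on leaving out any of 4 libraries (adjusted p = 0.057 without basal C57 replicate 2) and with only the groups compared in the fit (adjusted p = 0.11). Over all genes the median response difference from C57 was 0.17 in NOD, 0.16 in SPRET, 0.13 in PWK and −0.07 in BALB. The member values stand against that shift.

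The time course asked when after IL-4 the factors moved in C57 and SPRET BMDMs. Tfec was high within 1 hour and declined towards 24 hours, Bhlhe40 climbed throughout in C57 and reached a plateau at 6 hours in SPRET, and Bhlhe41 dipped and returned to near its basal level. Of 18 member tests against basal, 10 passed in C57 (21.2% of all gene tests) with 4 over 2-fold (2.92%), and 13 passed in SPRET (25.3%) with 8 over 2-fold (4.02%). At 1 hour 2 of 6 members passed in C57 (Tfec and Bhlhe40, where 3.95% of all genes passed) and 4 of 6 in SPRET (Tfec, Bhlhe40, Bhlhe41 and Tfeb, where 8.75% of all genes passed).

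In C57 the Tfec libraries were at 16.5 and 16.5 TPM at baseline, 60.5 and 58.3 TPM at 1 hour, 53.1 and 63.8 TPM at 6 hours and 32.6 and 30.4 TPM at 24 hours. SPRET libraries were at 56.2 and 59.1, 281 and 277, 219 and 230, and 136 and 136 TPM at the same times. The log2 differences from basal were 1.79, 1.76 and 0.89 in C57 and 2.25, 1.94 and 1.22 in SPRET, each with SE 0.072 and the largest adjusted p = 9.9e-07. Between 1 and 24 hours Tfec fell by 0.89 in C57 (adjusted p = 1.1e-06) and 1.03 in SPRET (adjusted p = 3.1e-07), contrasts added after the values had been seen.

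Bhlhe40 in C57 was at 53.4 and 54.0 TPM at baseline, 98.8 and 95.4 TPM at 1 hour, 160 and 156 TPM at 6 hours and 294 and 306 TPM at 24 hours. In SPRET it was at 101 and 98.9, 200 and 202, 379 and 380, and 385 and 380 TPM. The C57 differences were 0.84, 1.54 and 2.46 ± 0.039 at 1, 6 and 24 hours, the last a 5.59-fold ratio of means, and those of SPRET were 1.00, 1.92 and 1.93. The rise from 1 to 24 hours was 1.62 in C57 and 0.93 in SPRET.

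Bhlhe41 fell in SPRET from 126 and 126 TPM to 57.5 and 60.2 TPM at 1 hour and 55.9 and 66.3 TPM at 6 hours, and stood at 105 and 126 TPM at 24 hours. The differences were −1.08 (adjusted p = 3.1e-06) and −1.04 (adjusted p = 1.9e-06) at 1 and 6 hours and −0.14 (adjusted p = 0.27) at 24 hours. C57 held 95.9 and 105 TPM at baseline, 80.4 and 83.1 TPM at 1 hour, 60.1 and 58.5 TPM at 6 hours and 111 and 111 TPM at 24 hours, of which only the 6 hour difference passed (−0.75, adjusted p = 6.5e-05). In this table C57 at 24 hours did not pass (0.14, adjusted p = 0.23), whereas in the strain table it fell by 0.55, so the 24 hour value of Bhlhe41 in C57 differed between the 2 experiments.

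Mitf rose late, by 0.37 at 6 hours and 0.54 at 24 hours in C57 (adjusted p = 0.0037 and 9.8e-05, the former lost with only these groups in the fit at adjusted p = 0.079), from 34.3 and 32.1 TPM to 40.5 and 45.8 and then 48.6 and 48.9 TPM. In SPRET it rose by 0.64 at 6 hours (adjusted p = 3.1e-05) and by 0.25 at 24 hours (adjusted p = 0.018), the latter lost without basal SPRET replicate 1 (adjusted p = 0.15) and with only these groups in the fit (adjusted p = 0.11). Tfeb fell at 1 hour in SPRET, from 43.1 and 40.4 TPM to 31.2 and 29.3 TPM (−0.45, adjusted p = 0.0050), which was lost without the second 1 hour library (adjusted p = 0.053) and with only these groups in the fit (adjusted p = 0.079), and it was 0.39 above basal in C57 at 24 hours (adjusted p = 0.0035). Its SPRET value at 6 hours, 0.25, passed narrowly (adjusted p = 0.048) and was lost on leaving out any of 12 libraries. Tfe3 passed only at 6 hours in SPRET (0.21, adjusted p = 0.037), lost without basal SPRET replicate 1 (adjusted p = 0.29) and with only these groups in the fit (adjusted p = 0.17).

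**Figure D2:**
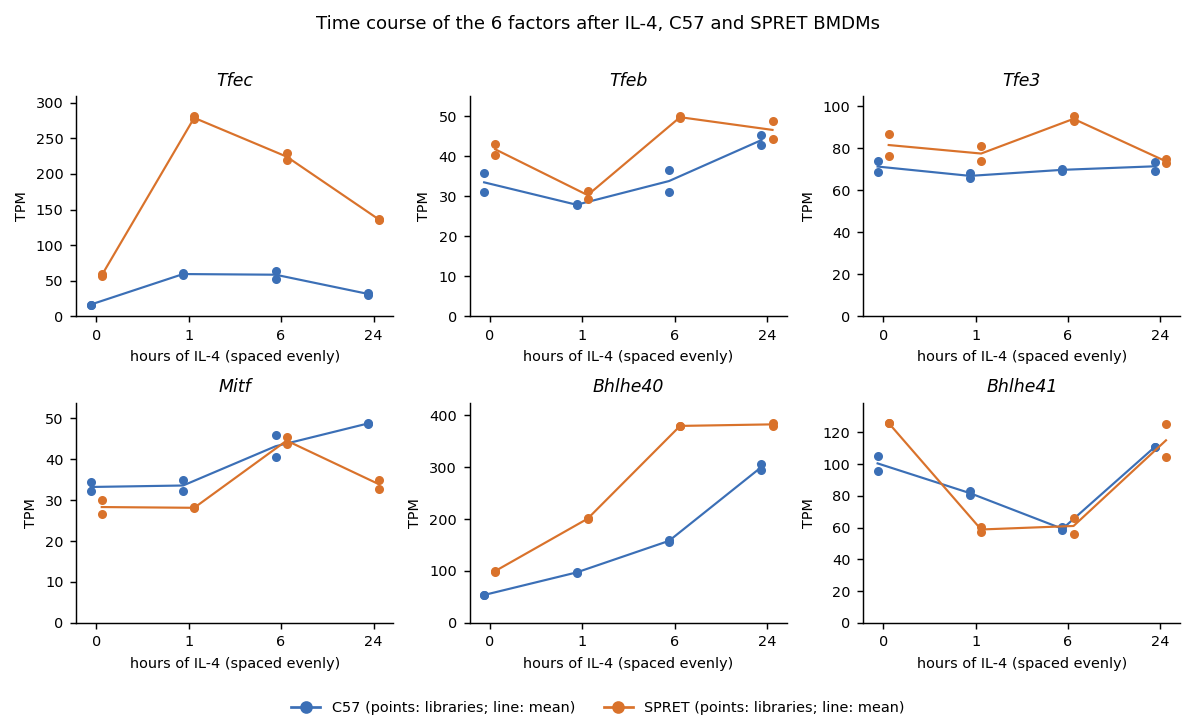
TPM of each factor in the time course libraries against hours of IL-4 (0 is basal), points for the 2 libraries of each group and lines through their means, for C57 and SPRET. Times are spaced evenly. Tfec in SPRET peaks at 1 hour at 277 to 281 TPM and in C57 lies between 53.1 and 63.8 TPM at 1 and 6 hours, and Bhlhe40 in C57 climbs to 306 TPM at 24 hours.

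Between SPRET and C57 at matched times 18 of 24 member tests passed (62.1% of all gene tests) and 6 exceeded 2-fold (19.3%), comparisons that share libraries with those against basal. Tfec was above 2-fold at every time, by 1.75 at baseline, 2.21 at 1 hour, 1.93 at 6 hours and 2.08 at 24 hours. Bhlhe40 was higher in SPRET by 0.88, 1.04, 1.26 and 0.35. Basal values of 2 members had opposite signs in the 2 experiments. Tfeb was 0.31 higher in SPRET here (adjusted p = 0.0079) and 0.40 lower in the strain table (log2 difference −0.40). Its call here was lost without basal C57 replicate 2 and after quantile normalization (0.20, adjusted p = 0.072). The Tfeb model also differed, at 2321 bases here and 2315 there. Bhlhe41 was 0.32 higher here (adjusted p = 0.0069, lost without basal C57 replicate 1) and lower there (−0.37). Mast cell markers summed to 10.9 to 22.4 TPM in SPRET and 0.29 to 0.65 TPM in C57 in the time course table. The highest of them was Mcpt8, at up to 20.2 TPM, and 4 of the 6 were below 1 TPM in every library. The sum thus largely follows 1 gene and is no measure of mast cells. The part of these markers in the Mitf and other differences was not tested.

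Tests of the difference in response between the 2 strains passed for 5 of 18 member values (14.1% of all gene tests), and 0 exceeded 2-fold (3.14%). The SPRET response of Bhlhe41 at 1 hour was lower by 0.79 (difference −0.79, adjusted p = 0.0037). That of Bhlhe40 was larger at 6 hours (0.38, adjusted p = 0.00068) and smaller at 24 hours (−0.53, adjusted p = 1.8e-05). The larger Tfec response in SPRET at 1 hour (0.47, adjusted p = 0.034) was lost on leaving out any of 10 of the 16 libraries, with adjusted p up to 0.13, and that at 24 hours (0.33, adjusted p = 0.030) on leaving out any of 6, with adjusted p up to 0.10.

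The Egr2 table asked how the factors behaved without Egr2, a zinc finger factor that IL-4 induces in macrophages. Egr2 itself was at 21.3 to 101 TPM in the Egr2 fl/fl libraries and at 0.854 to 7.05 TPM in the LyzM-Cre Egr2 fl/fl libraries, with no overlap. Bhlhe40 and Bhlhe41 were lower in the deleted cells at all 4 times, Tfeb and Mitf were lower at 6 and 24 hours, and Tfec was higher at 6 and 24 hours. Of 24 member tests 14 passed (20.2% of all gene tests) and 2 exceeded 2-fold (2.19%), both of them Bhlhe40. At 24 hours 5 of 6 members passed (37.4% of all genes), 4 lower and Tfec higher.

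Bhlhe40 in Egr2 fl/fl BMDMs was at 35.5 and 31.6 TPM at baseline, 47.7 and 47.6 TPM at 1 hour, 113 and 110 TPM at 6 hours and 191 and 182 TPM at 24 hours. In LyzM-Cre Egr2 fl/fl BMDMs it was at 23.9 and 21.7, 28.8 and 26.1, 46.2 and 48.9, and 68.1 and 63.7 TPM. The differences widened with time, being −0.54 ± 0.071 (adjusted p = 0.00039), −0.78 (adjusted p = 2.2e-05), −1.21 (adjusted p = 4.7e-07) and −1.49 (adjusted p = 1.6e-08), and the deleted cells held 0.353 times the control mean at 24 hours. The rise after IL-4 was smaller in the deleted cells, 1.49 against 2.44 at 24 hours (difference −0.95) and 1.03 against 1.71 at 6 hours (difference −0.68, lost with only these groups in the fit), but it was still over 2-fold.

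Bhlhe41 went from 112 and 114 TPM at baseline to 103 and 95.6, 72.7 and 65.3, and 81.0 and 74.0 TPM in Egr2 fl/fl, and from 98.8 and 95.6 TPM to 81.4 and 78.0, 42.5 and 40.1, and 38.6 and 38.1 TPM in the deleted cells. The deletion differences were −0.73 (adjusted p = 8.6e-06, and 0.052 with only these groups in the fit) at 6 hours and −0.99 (adjusted p = 1.6e-07) at 24 hours. Smaller differences at baseline (−0.22, adjusted p = 0.043) and 1 hour (−0.31, adjusted p = 0.0064) were lost on leaving out libraries, 8 of 16 for the former (adjusted p up to 0.23) and 2 of 16 for the latter (up to 0.072). Its fall after IL-4 was larger in the deleted cells at 24 hours, by a difference of −0.78, and at 6 hours, by −0.51, the latter lost on leaving out any of 6 libraries (adjusted p up to 0.095).

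Tfec rose in both genotypes. It was at 24.3 and 22.6 TPM at baseline, 70.0 and 63.6 TPM at 1 hour, 60.0 and 65.0 TPM at 6 hours and 51.7 and 55.2 TPM at 24 hours in Egr2 fl/fl, and at 21.5 and 23.4, 73.8 and 77.5, 75.0 and 82.9, and 73.6 and 82.6 TPM in the deleted cells. Between 1 and 24 hours the log2 difference was 0.04 in the deleted cells, which did not pass, and −0.32 in the control (adjusted p = 0.010, lost without the first 1 hour control library at adjusted p = 0.097 and after median-ratio scaling at 0.067). The deletion difference was 0.54 ± 0.080 at 24 hours (adjusted p = 0.00024) and 0.33 at 6 hours (adjusted p = 0.012, lost without the second 6 hour library of deleted cells at adjusted p = 0.091 and with only these groups in the fit at 0.15). At baseline it was −0.06 and at 1 hour 0.18, and neither passed.

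Tfeb was at 32.6 and 32.4 TPM in control and 17.1 and 20.0 TPM in deleted BMDMs at 24 hours (−0.78 ± 0.105, adjusted p = 0.00011), after 29.5 and 27.8 against 27.5 and 26.7 TPM at baseline. At 6 hours it was at 29.4 and 37.8 against 20.8 and 20.2 TPM (−0.68, adjusted p = 0.00079, and 0.13 with only these groups in the fit). Mitf at 6 hours was at 38.1 and 36.8 TPM in control and 27.4 and 26.2 TPM in deleted cells (−0.47, adjusted p = 0.00032, and 0.069 with only these groups in the fit), and at 24 hours it differed by −0.24 (adjusted p = 0.013, lost without the first 24 hour library of deleted cells at adjusted p = 0.12). Tfe3 passed at no time, with values from −0.05 to 0.12. The sum of granulocyte markers was lower in deleted than in control cells at every time, at 39.6 to 44.7 against 61.4 to 64.5 TPM at baseline, 39.3 to 49.7 against 68.9 to 83.4 TPM at 1 hour, 17.9 to 23.2 against 43.2 to 53.5 TPM at 6 hours and 10.7 to 16.1 against 19.1 to 21.0 TPM at 24 hours. Summed macrophage markers were lower as well, at 20684 to 20723 against 24357 to 25911 TPM at baseline and 12727 to 13267 against 15408 to 15632 TPM at 24 hours. The highest of them was Lyz2, at up to 22023 TPM, the gene whose promoter drives Cre in the deleted cells. The sum thus largely follows 1 gene tied to the genotype and is no measure of the other macrophage markers. Stromal markers reached at most 1.09 TPM and melanocyte markers at most 2.10 TPM in this table, and the part of these markers in the results was not tested.

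Against their own baseline, 11 of 18 member tests passed in Egr2 fl/fl (19.7% of all gene tests) with 5 over 2-fold (2.66%), and 10 of 18 in the deleted cells (20.6%) with 7 over 2-fold (3.14%). The response differed between genotypes in 7 of 18 member tests (4.58% of all gene tests), none over 2-fold (0 of 18, against 0.706%). None of those 7 was at 1 hour, where limma gave 0 of 6 passed and 1 of 6 with an unadjusted p below 0.05, and 4 of 6 were at 24 hours (12.6% of all genes). Fitted on only the groups compared, in place of all groups of the table, the deletion itself passed in 8 of 24 and the response difference in 4 of 18. At 6 hours this left 1 of 6 members for the deletion, Bhlhe40. The 6 hour response differences of Bhlhe40, Bhlhe41 and Mitf lost their calls in that fit (adjusted p = 0.14, 0.15 and 0.20). At 24 hours the deletion call of Mitf was lost in that fit (adjusted p = 0.079) and those of Bhlhe40, Bhlhe41, Tfeb and Tfec were kept. On median-ratio scaling the share of passed genes higher in deleted cells at 24 hours moved from 69.3% to 45.4%, with a median of all genes at 0.12, and the same number of members, 5 of 6, passed.

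**Figure D3:**
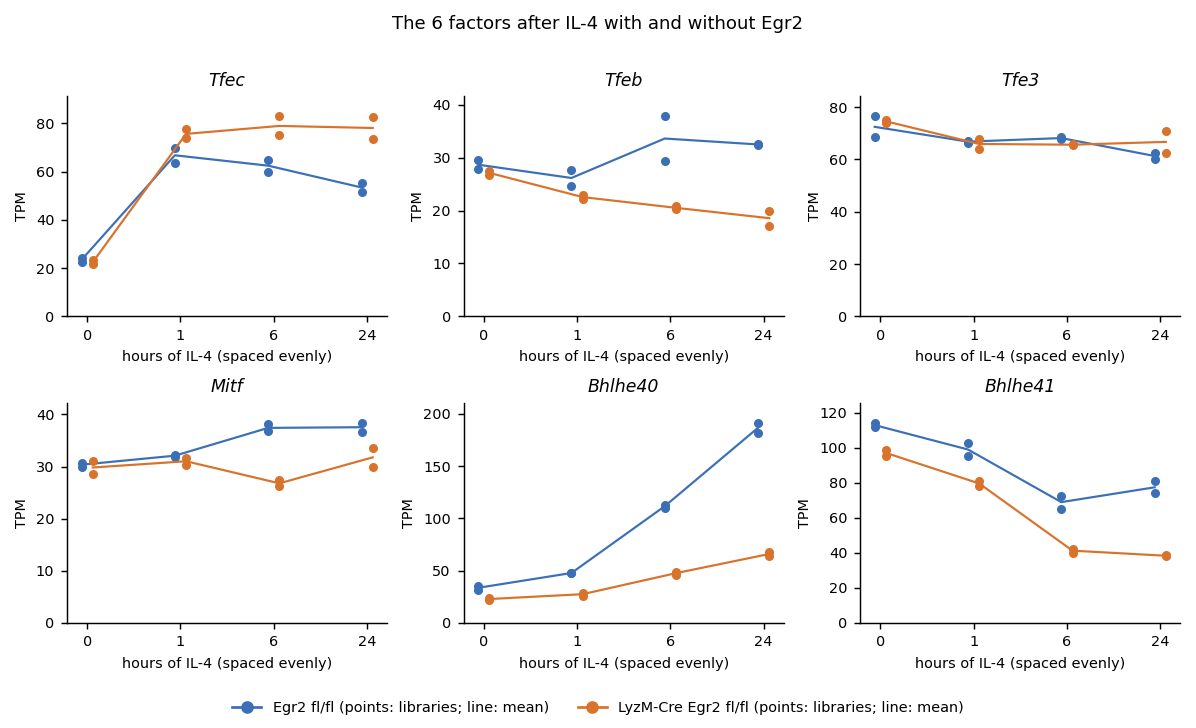
TPM of the factors against hours of IL-4 (0 is basal) in Egr2 fl/fl and LyzM-Cre Egr2 fl/fl BMDMs, points for the 2 libraries of each group and lines through their means. At 24 hours Bhlhe40 is at 182 to 191 TPM in the control and 63.7 to 68.1 TPM in the deleted cells, and Tfec at 51.7 to 55.2 against 73.6 to 82.6 TPM.

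Egr2 varied between strains as well. It rose 4.09 in SPRET, 2.01 in PWK, 1.97 in C57 and 1.08 in BALB on the log2 scale, differed by 0.08 in NOD (adjusted p = 0.50), and its basal level was 24.8 to 31.7 TPM in NOD and 1.87 to 2.20 TPM in SPRET. These values stand beside those of Bhlhe40 as a description only.

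In F1 mice both parental alleles share the same nuclei, so the allele values of autosomal genes compare the copies under a common set of factors. Tfe3 is X-linked, and its alleles are subject to X inactivation in female cells. Allele signal was scaled separately for each allele and by genomic span in the F1 C57 x SPRET table, so only alleles of a gene were compared, with 2 libraries and no test. The F1 tables used shorter gene models of Tfeb, Tfe3 and Mitf than the strain table (Mitf from 97991783 in place of 97807058, for example), so their F1 and parental differences were not taken over the same stretch. Past 2-fold the same way in both libraries were 1 of 6 members at baseline (7.91% of all genes) and 1 of 6 after IL-4 (4.98%), in each case Bhlhe41. Its C57 and SPRET alleles were at 109 and 259 in the first basal library and 141 and 343 in the second, and at 64.3 and 152 and at 63.8 and 182 after IL-4. The log2 difference of the C57 allele from the SPRET allele was −1.25 and −1.28 at baseline and −1.23 and −1.50 after IL-4, where the parental strains differed by 0.37 at baseline and −0.22 after IL-4. The median over all genes was −0.05 at baseline and −0.03 after IL-4.

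Tfec showed the reverse pattern. Its C57 and SPRET alleles were at 6.54 and 7.75 and at 5.75 and 7.30 in the basal F1 libraries, and at 9.79 and 12.8 and at 10.6 and 11.4 after IL-4. The allele differences averaged −0.26 at baseline and −0.22 after IL-4, where the parental strains differed by −1.36 and −1.84. All 4 pairs had the SPRET allele as the higher one. Bhlhe40 alleles averaged −0.14 at baseline and −0.08 after IL-4, against parental values of −0.15 and −0.72, and stood at 269 and 307 at baseline and 441 and 461 after IL-4 in the first libraries. For Tfeb the alleles averaged −0.14 and 0.13 where the parents gave 0.40 and 0.09, for Tfe3 −0.35 and −0.22 (parents −0.06 and −0.23) and for Mitf 0.09 and −0.05 (parents 0.65 and 0.55).

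In the F1 C57 x NOD table Tfec, Mitf and Bhlhe40 were listed at 0 for both alleles in all libraries and Tfe3 in all but 1 basal library. The allele signal is weighted by reads over variants, so a 0 need not mean a silent gene. Parental Bhlhe40 means were 42.1 TPM (basal) and 128 TPM (IL-4) in C57 and 106 TPM in both NOD groups. Whether these genes hold variants between the 2 strains was not tested. The 2 listed members, Tfeb and Bhlhe41, did not pass 2-fold in both libraries in either condition (0 of 2 at baseline, where 7.88% of all genes did, and 0 of 2 after IL-4, where 9.89% did). Bhlhe41 gave −0.09 and −0.02 at baseline and 0.38 and 0.41 after IL-4 for the C57 minus the NOD allele, while the parental strains differed by −0.64 and −1.08. Tfeb gave −0.32 and 0.11 at baseline and 0.51 and −0.05 after IL-4, so its libraries disagreed in sign.

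**Figure D4:**
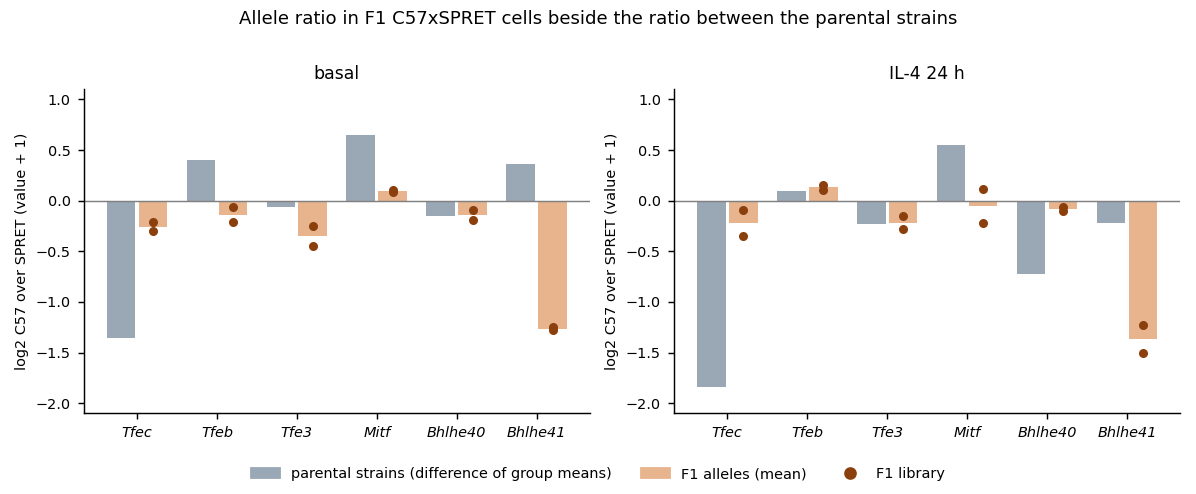
Log2 difference of the C57 allele from the SPRET allele for each factor in F1 C57 x SPRET BMDMs, basal and after 24 hours of IL-4, points for the 2 libraries, beside the difference between the parental strains. Bhlhe41 lies between −1.23 and −1.50 in the F1, and Tfec between −0.09 and −0.35 against −1.36 and −1.84 between the parents.

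Genes of the pathways around the factors were described from fixed lists, beside the same counts for all genes. After IL-4, 1783 of 11907 genes rose and 2443 fell in C57, 1125 and 2951 in BALB, 3360 and 723 in NOD, 2212 and 724 in PWK and 3743 and 1540 in SPRET, and the counts of each list stand against these. Of 28 lysosome genes of the CLEAR network, the targets of Tfeb and Tfe3, 12 rose and 7 fell in C57, 5 and 8 in BALB, 9 and 3 in NOD, 12 and 5 in PWK and 16 and 6 in SPRET. The lysosomal protease gene Ctsf fell in all 5 strains (mean log2 difference −0.62, range −1.31 to −0.19), and so did the autophagy receptor gene Sqstm1 (mean −0.58). Of 19 genes measured of mTORC1 nutrient sensing, which holds Tfeb and Tfe3 in the cytosol, 1 rose and 5 fell in C57, 0 and 10 in BALB, 6 and 1 in NOD, 4 and 3 in PWK and 12 and 2 in SPRET, and Lamtor4, a subunit of the Ragulator complex, fell in all 5 (mean −0.30). The more frequent direction in the nutrient sensing list was that of all genes in each of the 5 strains, and so was that of the lysosome list outside C57. In the order of the counts above, the median log2 differences of the lysosome list were 0.10, −0.07, 0.06, 0.11 and 0.17. Those of the nutrient sensing list were −0.06, −0.17, 0.16, −0.03 and 0.28. Those of all genes were −0.04, −0.11, 0.12, 0.08 and 0.11.

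Of 9 measured genes of osteoclasts and macrophages tied to Mitf or Tfec, 5 rose and 1 fell in C57, 4 and 0 in BALB, 6 and 0 in NOD, 5 and 0 in PWK and 5 and 3 in SPRET. The medians were 0.26, 0.17, 0.47, 0.26 and 0.23 in the same order. Atp6v0d2, a proton pump subunit, rose over 2-fold in all 5 strains (mean 1.95, range 1.14 to 3.64), and Csf3r, the receptor of G-CSF, in 4 (mean 0.996, range 0.02 to 1.57). Of 16 clock genes 3 rose and 6 fell in C57 and 4 and 3 in SPRET, with a rise of Nfil3 in all 5 strains (mean 1.28) and a fall of Dbp in all 5 (mean −0.61), both of them clock output factors. Of 15 other helix-loop-helix genes, 4 rose and 4 fell in C57, and Id3, an inhibitor of such factors, fell over 2-fold in 4 strains (mean −1.40).

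In the Egr2 table at 24 hours 3131 of 12079 genes were higher and 1389 lower in the deleted cells. Maf and Il10, 2 of the 3 genes listed as restrained by Bhlhe40, were both higher. Il10 was named after its values were seen, and its control level was near the floor. Whether the lower Bhlhe40 had a part in either was not tested. Maf was at 85.2 TPM in deleted and 24.7 TPM in control cells (log2 difference 1.74, adjusted p = 1.3e-08) and Il10 at 1.75 and 0.114 TPM (1.30, adjusted p = 0.00036). Across the 5 strains after IL-4, Maf passed in 2 (mean log2 difference −0.10). Of the 28 lysosome genes 11 were higher and 7 lower in the deleted cells, led by Sgsh, a heparan sulfate-degrading enzyme, at 41.6 against 8.85 TPM (2.11, adjusted p = 1.0e-09). Of the 9 genes tied to Mitf or Tfec 2 were higher and 5 lower, led by Ocstamp, a fusion gene, at 0.21 against 8.37 TPM (−2.98, adjusted p = 7.6e-07). The median log2 difference was 0.09 in the lysosome list and −0.19 in the list tied to Mitf or Tfec, beside 0.12 over all genes.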

How the data were processed

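RNA was measured in BMDMs by polyadenylated RNA-seq. Per the study's methods and the submitters' processing notes, the authors aligned C57 reads with STAR to mm10 and those of the other strains to genomes carrying their own variants, moved these to mm10 coordinates with MMARGE, counted tags per gene with HOMER and deposited TPM values per library, with the tag total in each column header. For the F1 mice the authors deposited an allele signal headed TPM, in which expression is weighted by each allele's share of variant-overlapping reads, so its depth is unknown. The tables held no read counts in the columns used. The authors' fold changes and p-values from DESeq2 were not used, and a human table was not analysed here. Of the columns in the tables used, 0 could not be tied to a sample.

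Libraries were grouped by their GEO labels. Values were taken as log2(TPM + 1), genes reaching 1 TPM in 2 or more libraries were kept, and 1 model per table with a mean for each group was fitted with limma 3.58.1 (R 4.3.3, empirical Bayes with a trend). Every printed p-value comes from limma and was adjusted by Benjamini-Hochberg over all genes tested. A test passed at an adjusted p below 0.05, and a 2-fold limit was added where stated. Fold changes on this scale understate those of low genes. The script was tested on simulated data. Same-numbered libraries did not deviate together on average (mean correlation of residuals 0.013, 0.030 and −0.0046 in the 3 tables). Single pairs reached 0.33, 0.27 and 0.057. Samples were therefore not treated as paired in the main fit, but with so few libraries a mean cannot show that no pairs exist.

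The members and gene lists were chosen with earlier results of these data known. Named genes were the 6 members, Egr2, the 2 genes of each list with the largest mean change over the 5 strains that passed in at least 1 strain, the 1 gene of each list with the largest change at 24 hours in the Egr2 table that passed, and the 3 genes most correlated with each member. Of the genes restrained by Bhlhe40, Il10 was named after its values were seen, and 1 result of that list is not reported here. Alternatives were other scalings, filters, pseudocounts and priors, a replicate block, fits on only the groups compared and each library left out.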

Additional observations from a re-analysis of the deposited data

Results flagged for a closer look

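A test of the difference between responses passed for 26 of 60 member values, pooled from 3 sets of contrasts whose shares over all genes differ and are given with each. Groups held 2 or 3 libraries, too few to look for single libraries far from the rest. Against the C57 response, 14 of 24 passed (26.2% of all gene tests). For Tfec the difference was 1.09 in PWK, 0.48 in SPRET, −0.73 in BALB and −1.25 in NOD. Bhlhe40 gave −1.59 in NOD, −1.07 in PWK, 0.57 in SPRET and −0.96 in BALB, and Bhlhe41 gave 0.28 in BALB, 0.44 in NOD and 0.59 in SPRET. The Tfeb response differed by 0.60 in BALB (lost with only the groups compared in the fit, adjusted p = 0.12) and by −0.53 in PWK. That of Mitf differed by −0.43 in BALB (also lost in that fit, adjusted p = 0.14). Of these, the Mitf value in BALB, the Bhlhe41 value in BALB and the Tfeb value in PWK were lost on leaving out any of 5, 4 and 4 libraries, with adjusted p up to 0.10, 0.057 and 0.081.

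In the time course, 5 of 18 differences of the SPRET response from the C57 response passed (14.1% of all gene tests). Tfec gave 0.47 at 1 hour and 0.33 at 24 hours, Bhlhe41 gave −0.79 at 1 hour, and Bhlhe40 gave 0.38 at 6 hours and −0.53 at 24 hours. The sign of the Bhlhe40 difference at 24 hours in the time course was opposite to that in the strain table, where SPRET and C57 gave 0.57.

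Between LyzM-Cre Egr2 fl/fl and Egr2 fl/fl cells, 7 of 18 response differences passed (4.58% of all gene tests). At 6 hours Mitf gave −0.44, Bhlhe40 −0.68 and Bhlhe41 −0.51. At 24 hours Tfec gave 0.60, Tfeb −0.70, Bhlhe40 −0.95 and Bhlhe41 −0.78. The Mitf value was lost on leaving out any of 13 of the 16 libraries, with adjusted p up to 0.20. The causes of these differences were not tested.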

How the results depend on the processing

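Over all alternatives, counts of passed member tests stayed within 1.5 times the reported count in 350 of 356 cases. The SPRET minus C57 response differences over time went from 5 to 3 with no trend in the prior, and from 3 to 7 on leaving out each library in turn, with 3 without C57 basal replicate 1, C57 basal replicate 2 or SPRET 24 hour replicate 1. With only the groups compared in the fit, the Egr2 deletion went from 14 to 8 passed and its response differences from 7 to 4, with fewer libraries to estimate the spread. Directions that turned were, after median-ratio scaling, Tfe3 in the NOD response (−0.138), Bhlhe40 in basal PWK minus BALB (0.167), and after IL-4 Bhlhe41 in SPRET minus C57 (−0.00068), Mitf in SPRET minus NOD (−0.190) and Bhlhe41 in SPRET minus PWK (−0.0882), and after quantile normalization Mitf in SPRET minus NOD (−0.186) and Bhlhe41 in SPRET minus PWK (−0.0619). Of the remaining values of single genes, 12874 were labelled the same, 241 became weaker, 82 stronger and 172 moved. The directions listed above are those of limma fits. An F1 value under 2-fold was labelled the same if it stayed within 1 SD of the reported mean, whatever its sign. The sign differed between libraries for Mitf after IL-4 in F1 C57 x SPRET (0.12 and −0.22) and for Tfeb in F1 C57 x NOD. Of 218 member tests that passed, 182 did so with every library left out in turn and 36 were lost at least once. The number of F1 values past 2-fold stayed at 2 under the alternatives run. The depth behind F1 alleles is unknown.

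With the replicate number as a block, the counts of passed tests were 17 for the response in 5 strains, 49 for basal and 53 for IL-4 strain differences (47 and 52 without it), 14 for response differences from C57, 10 and 13 for the C57 and SPRET time courses, 18 and 5 for their difference and response difference, 14 for the Egr2 deletion, 11 and 12 for the 2 genotypes (11 and 10 without it) and 6 for their response difference (7 without it). The Mitf response difference at 6 hours lost its call under the block (adjusted p = 0.072).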

Other observations

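Across the 29 libraries of the strain table, the genes whose log2 TPM was most like that of each member among 11907 genes were described by Pearson's r. These libraries share strains and treatment, so the values are a description. For Tfec they were Apex1 (0.955), BC004004 (0.949) and Btbd19 (0.945), and for Bhlhe41 Zfp36l2 (0.955), Traf3 (0.949) and Nf2 (0.946). For Bhlhe40 the first was 0610040F04Rik (0.893), the antisense gene whose exons overlap its own, then Pepd (0.892) and Mrps28 (0.869). Tfe3 was most like Sgsh (0.958), Cc2d2a (0.956) and B230219D22Rik (0.953), Tfeb like Hist1h1c (0.908), Bbc3 (0.880) and Gadd45b (0.874), and Mitf like Lpl (0.888), Eral1 (0.884) and Elmod2 (0.883). Among the members themselves, Tfec and Bhlhe41 gave −0.69 in the strain table, −0.53 over the 16 time course libraries and −0.67 over the 16 libraries of the Egr2 table, and Bhlhe40 and Bhlhe41 gave −0.02, −0.18 and −0.29.

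Further genes of the lists moved in the Egr2 table at 24 hours. Rragd, a Rag GTPase that recruits mTORC1 to lysosomes, was at 18.9 TPM in deleted and 12.2 TPM in control cells (log2 difference 0.60, adjusted p = 0.0002). Dbp, a clock output factor, was at 12.5 and 5.25 TPM (1.10, adjusted p = 0.00016). Id2, an inhibitor of helix-loop-helix factors, was at 84.8 and 219 TPM (−1.36, adjusted p = 5.6e-07). Over the 5 strains after IL-4, Tsc1, which restrains mTORC1, passed in 3 strains (mean 0.25), and Epas1, a hypoxia factor, rose in all 5 (mean 0.66). Of 19 nutrient-sensing genes 8 were higher and 2 lower in deleted cells at 24 hours, of 17 clock genes 5 were higher and 2 lower, and of 15 other helix-loop-helix genes 6 were higher and 2 lower. Among all 12079 genes 4520 passed in this comparison. Of those, 69.3% were higher, a share that was 45.4% after median-ratio scaling, so the more frequent direction in these lists was that of all genes on the TPM scale.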
